A study of Bos taurus with 24 samples.

Results

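Fatty acid desaturases and elongases are the membrane enzymes of the endoplasmic reticulum that set the unsaturation and the length of cellular acyl chains. The 10 genes described were chosen by gene symbol: the desaturases SCD, SCD5, FADS1, FADS2 and FADS3 and the elongases ELOVL1, ELOVL4, ELOVL5, ELOVL6 and ELOVL7. All 10 were found among the 27570 genes of the day 4 table, were joined by gene identifier to the day 7 table, and passed the filters on low values at both days. The libraries came from pre-adipocytes of subcutaneous fat of 6 Holstein cows, cultured and induced to differentiate into adipocytes. Every group, controls included, had medium with serum, insulin, acetate and troglitazone (an agonist of the adipogenic receptor PPARG), with isobutylmethylxanthine and dexamethasone in the opening phase of induction only. CON cultures had no added fatty acid. PA cultures had palmitic acid (saturated), OA cultures had oleic acid (monounsaturated), and MIX cultures had 60% palmitic and 40% oleic acid, each at 300 µM in total. Cows 4, 5 and 6 gave the day 4 cultures, with fatty acid present from induction onward, and cows 1, 2 and 3 gave the day 7 cultures, with fatty acid added once the induction phase was over. Each of the 8 groups thus held 3 RNA-seq libraries, 1 per cow, and the same 3 cows supplied all 4 treatments of a day. No genotype or age of the animals is given in the sources used here, and sampling day, treatment schedule and animals cannot be told apart between the 2 days.

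Stearoyl-CoA desaturases, SCD and its paralog SCD5, place a double bond in saturated acyl chains and so make oleic acid from stearic acid and palmitoleic acid from palmitic acid. In ruminant adipose tissue SCD supplies much of the oleic acid that is stored. FADS2 and FADS1 carry out the successive front-end desaturations that turn linoleic and alpha-linolenic acid into arachidonic and eicosapentaenoic acid, and FADS3 has been reported in mouse and human cells to desaturate sphingoid bases. ELOVL6 lengthens palmitic to stearic acid, ELOVL5 lengthens polyunsaturated chains, ELOVL1 and ELOVL7 act mainly on saturated chains, and ELOVL4 makes the longest chains of all.

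The day 4 libraries held 13509548 to 17071654 counts each. For day 7, where the deposited values are normalised, 14118798 to 24008811 reads per library were recovered from them. The least covered value of any desaturase or elongase was 124 reads, for ELOVL4 at day 4. The cell label was checked against marker genes. Of 12 adipocyte markers measured, 8 averaged at least 1 FPKM (fragments per kilobase of transcript, scaled to library size) at day 4 and 5 at day 7. ADIPOQ (adiponectin) averaged 0.015 FPKM at day 4 and was at 0 in all day 7 libraries. PPARG averaged 3.07 and 0.23 FPKM and FABP4 30.3 and 0.41. LIPE (4.00 and 0.96 FPKM), ADIRF (6.80 and 2.64), PLIN1 (1.85 and 1.05), LPL (0.88 and 0.46) and CIDEC (0.46 and 0.30) also had the lower mean at day 7. RBP4 (44.8 and 69.7 FPKM), PNPLA2 (8.34 and 12.6) and CIDEA (1.71 and 2.14) had the higher mean at day 7. So did LEP, at a level near 0 (0.002 and 0.041). The 12 adipocyte markers summed to between 66.7 and 175 FPKM in the day 4 libraries and between 55.0 and 124 in those of day 7. On average RBP4 and FABP4 held most of this sum at day 4, and RBP4 at day 7. Sums of adipocyte markers given below therefore follow these genes more than the rest of the list. The sum of 12 preadipocyte and fibroblast markers, with DLK1 at 0 throughout, was 10388 to 27750 and 17835 to 35288 FPKM. Macrophage and leukocyte markers summed to between 12.1 and 17.3 FPKM in the day 4 libraries and between 4.94 and 27.3 in those of day 7. Most of that was CD14 (6.02 and 10.5 on average) and CD68 (4.48 and 2.43), while PTPRC averaged 0.001 and 0.003 and C1QA was at 0. Endothelial markers reached at most 5.01 and 1.78 FPKM. Epithelial and mesothelial markers reached at most 4.49 and 14.4 FPKM, with MSLN the highest of them at day 7 (6.06 on average). Smooth muscle and myofibroblast markers reached 2746 FPKM at day 4 and 5972 at day 7. In bulk RNA, fewer cells of a type and less RNA per cell cannot be told apart.

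FADS1, FADS2 and FADS3 lie side by side on chromosome 29, in the coordinates of the deposited tables, whose genome build is not given in the sources used here. FADS1 spans 40244038 to 40351218 on the minus strand, FADS2 spans 40350389 to 40387558 on the plus strand, and FADS3 spans 40392841 to 40407757 on the minus strand. FADS1 and FADS2 overlap by 830 bases, and 5282 bases separate FADS2 from FADS3. The strand setting of the counting is not given, so reads in the overlap cannot be assigned to FADS1 or FADS2, and the values of these 2 genes are uncertain to that extent. ELOVL6 (chromosome 6, 15199666 to 15360477) overlaps by 231 bases an unnamed gene on the other strand that averaged 1.23 FPKM at day 4 and 0.62 at day 7. ELOVL7 (chromosome 20, 18454411 to 18531445) overlaps another by 342 bases, at 0.032 and 0.062 FPKM. The other members, with no overlapping gene, are SCD on chromosome 26 (21263727 to 21279185), SCD5 on 6 (97461721 to 97637722), ELOVL1 on 3 (102629291 to 102654464), ELOVL4 on 9 (19602129 to 19641142) and ELOVL5 on 23 (25400733 to 25474020).

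All 10 transcripts were detected in all 24 libraries. At day 4 the polyunsaturated chain elongase ELOVL5 was highest, at 82.8 ± 5.67 FPKM (mean ± SD over 12 libraries of 3 cows), followed by FADS3 at 76.0 ± 22.8 and ELOVL1 at 50.0 ± 18.2. These levels are per kilobase and can be set beside each other. ELOVL5 took 29.1% of the summed FPKM of the 10 genes, FADS3 26.7% and ELOVL1 17.5%. SCD averaged 28.3 ± 7.93 FPKM, FADS1 13.6 ± 1.78, ELOVL7 8.77 ± 2.27, FADS2 8.17 ± 3.24, ELOVL4 6.81 ± 2.53, SCD5 5.73 ± 0.88 and ELOVL6 4.89 ± 0.83. Neighbours in this order overlapped between libraries, except that all SCD values lay above all FADS1 values, so most of the order is within the spread between libraries.

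At day 7 FADS3 was highest, at 193 ± 14.99 FPKM or 39.5% of the summed level. FADS2 came next on average, at 90.7 ± 68.1 FPKM, but ranged 21.2-fold over the 12 libraries, from 9.94 to 210 FPKM. ELOVL5 averaged 56.9 ± 7.36 FPKM, SCD 48.5 ± 22.6, ELOVL1 36.5 ± 6.43, FADS1 30.1 ± 10.0, ELOVL7 13.9 ± 6.90, SCD5 7.74 ± 1.40, ELOVL6 6.22 ± 1.87 and ELOVL4 5.09 ± 1.47. Each gene overlapped its neighbour in this order. The day 4 and day 7 tables were normalised separately and come from different cows, so levels were not tested between days. The lowest day 7 value of FADS3, 164 FPKM, lay above its highest day 4 value of 111. For ELOVL5 the lowest day 4 value, 74.1, lay above its highest day 7 value of 71.7. The share of all genes with no overlap between the days was not computed, so these cases are given as values only.

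**Figure D1:**
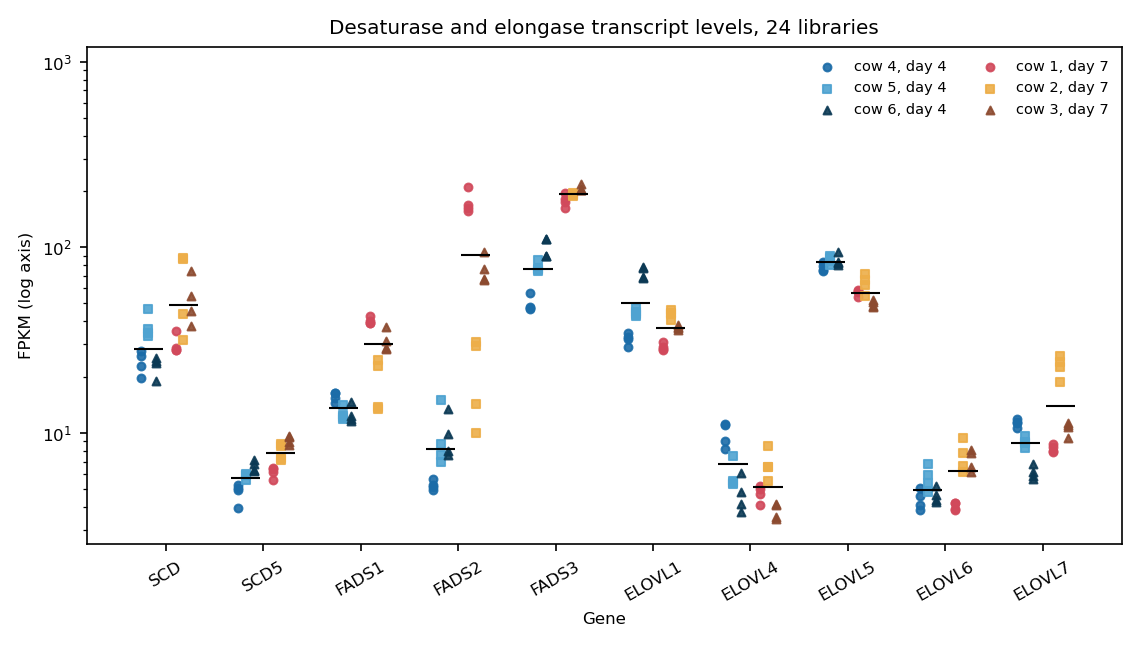
Level of each desaturase and elongase in FPKM (log axis) in the 24 libraries. Each point is 1 library, the shape and colour give the cow and day, and the black bars are means over the 12 libraries of a day. FADS3 at day 7 (164 to 220 FPKM) and ELOVL5 at day 4 (74.1 to 94.5 FPKM) lie high and close together, whereas FADS2 at day 7 spreads from 9.94 to 210 FPKM, with its 3 cows apart.

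Much of this spread lay between cows. On the log2(FPKM + 1) scale, cow accounted for 42.8% (ELOVL5) to 97.4% (ELOVL1) of a member's sum of squares at day 4 and 47.3% (SCD) to 96.4% (ELOVL7) at day 7, against 83.4% and 81.5% summed over all genes kept. The FADS2 values of day 7 fell in the order of the cows: 157 to 210 FPKM in cow 1, 66.8 to 94.8 in cow 3 and 9.94 to 30.9 in cow 2. ELOVL7, in contrast, was highest in cow 2, at 18.9 to 26.0 FPKM against 7.92 to 11.3 in the other 2 cows. ELOVL1 at day 4 ran from 29.0 to 34.6 FPKM in cow 4, 42.6 to 47.0 in cow 5 and 68.2 to 78.3 in cow 6, with no overlap between cows. Treatment accounted for 0.14% (ELOVL7) to 28.6% (ELOVL6) at day 4, with FADS2 at 25.1%, and for 0.44% (ELOVL1) to 23.95% (SCD) at day 7, against 5.46% and 6.44% summed over all genes. Random spread also enters the treatment share.

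The first question was whether any desaturase or elongase responded to a fatty acid within a day. None of the 10 passed an adjusted p of 0.05 in any of the 12 comparisons within a day, by edgeR's quasi-likelihood test on counts at day 4 or limma on log2(FPKM + 1) at day 7. Over all genes, these tests called 0% of 13580 genes at day 4 and 0% of 12615 at day 7 in every comparison. At an unadjusted p under 0.05 the count of members was also 0 in all 12, against 0.11% (PA), 0.177% (OA) and 0.118% (MIX) of all genes for the comparisons with CON at day 4 and 0.46%, 0.539% and 0.38% at day 7. For OA against PA, MIX against PA and MIX against OA the shares of all genes were 0.169%, 0.118% and 0.147% at day 4 and 0.69%, 0.491% and 0.555% at day 7. With cow as a block, which removes the differences between animals, 0 of 10 members passed in any comparison by edgeR at day 4, by limma at day 7 or by edgeR on recovered reads at day 7. Those fits called 0.0736% of all genes for OA against CON and 0.221% for OA against PA at day 4 and 0% in the other comparisons, except that the recovered reads gave 0.0586% for OA against PA and 0.0146% for MIX against OA. Without the block, the spread between cows enters the error, so a count of 0 there does not show that the members did not differ. The members with the smallest p-values are described in turn, with values in place of a verdict. Where a direction is said to hold in 3 of 3 cows, random spread can also give it. The share of all genes with such a direction was not computed.

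FADS2, the entry enzyme of polyunsaturated fatty acid synthesis, was the member with the largest OA difference at day 4. In cows 4, 5 and 6 it read 4.92, 6.95 and 7.99 FPKM in CON, 5.67, 7.55 and 7.63 in PA, 5.12, 15.1 and 13.4 in OA, and 5.24, 8.71 and 9.81 in MIX. The OA libraries of cows 5 and 6 stood above all other day 4 libraries, while the OA library of cow 4 lay within the CON range, so the groups overlapped. Within a cow the OA to CON ratio was 1.04 in cow 4, 2.17 in cow 5 and 1.68 in cow 6. The log2 difference was 0.75 ± 0.38 (SE, adjusted p = 1.0 by edgeR) and 0.68 ± 0.15 with cow as a block (adjusted p = 0.108).

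The FADS2 call at day 4 turned on the tool and on single libraries. DESeq2 with the block gave 0.68 ± 0.16 for OA against CON and printed no adjusted p for FADS2 under its independent filtering. With that filtering off the adjusted p was 0.0327, where 0.133% of all genes were called. Without cow 4 the block fit of edgeR gave 0.92 ± 0.14 (adjusted p = 0.00549, 0.00744% of genes called), and FADS2 was then the single gene called. Without only the OA library of cow 4 it gave 0.92 ± 0.12 (adjusted p = 0.00202, 0.00726% called). Without cow 6 it gave 0.65 ± 0.15 (adjusted p = 0.0249, 0.543% called) and without the PA library of cow 6 0.68 ± 0.14 (adjusted p = 0.0435, 0.123% called). Without cow 5 it gave 0.44 ± 0.18 (adjusted p = 1.0). Leaving out cow 4, its OA library or its PA library likewise brought FADS2 past the threshold for OA against PA, with log2 differences of 0.91 ± 0.14, 0.85 ± 0.12 and 0.77 ± 0.15 (adjusted p = 0.00679, 0.00795 and 0.0396 by edgeR with the block, with 0.067%, 0.0871% and 0.087% of genes called). With all libraries that difference was 0.60 ± 0.15 (adjusted p = 0.0994). In the authors' deposited table for day 4, the p-value of FADS2 for control against OA was 0.105, with an adjusted p of 1.0.

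The other desaturases at day 4 differed less. FADS1, the partner of FADS2 in the same pathway, read 15.4, 12.2 and 11.9 FPKM in CON, 16.3, 11.8 and 12.3 in PA, 14.4, 14.1 and 14.6 in OA, and 16.3, 12.4 and 11.6 in MIX for cows 4, 5 and 6. OA lay above CON in cows 5 and 6 and below it in cow 4, with a log2 difference of 0.12 ± 0.19. FADS3 read 47.2, 74.5 and 90.2 FPKM in CON, 46.3, 76.0 and 90.1 in PA, 56.9, 85.6 and 111 in OA, and 47.8, 76.4 and 110 in MIX. Here OA exceeded CON in each of the 3 cows, by ratios of 1.21, 1.15 and 1.23, and exceeded PA by 1.23, 1.13 and 1.23. The groups still overlapped, because the cows differed more than the treatments. The FADS3 log2 difference between OA and CON was 0.25 ± 0.38 by edgeR and 0.25 ± 0.07 with the block (adjusted p = 0.397), and that between OA and PA was 0.25 ± 0.07 with the block (adjusted p = 0.205).

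SCD, which makes the oleic acid that the OA cultures received ready-made, did not show a common direction against CON with OA or PA at day 4. It read 26.0, 36.4 and 23.8 FPKM in CON, 27.6, 33.3 and 25.4 in PA, 19.8, 46.2 and 24.3 in OA, and 22.8, 34.7 and 19.0 in MIX for cows 4, 5 and 6. OA was below CON in cow 4, above it in cow 5 and level with it in cow 6, at ratios of 0.763, 1.27 and 1.02. MIX was below CON in 3 of 3 cows, with a log2 difference of -0.18 ± 0.34 by edgeR (-0.20 ± 0.11 with the block). SCD5, the isoform with the lower level here, ranged from 3.92 to 7.13 FPKM, and its OA to CON ratios were 1.34, 1.00 and 1.15 in the 3 cows (log2 difference 0.18 ± 0.23).

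**Figure D2:**
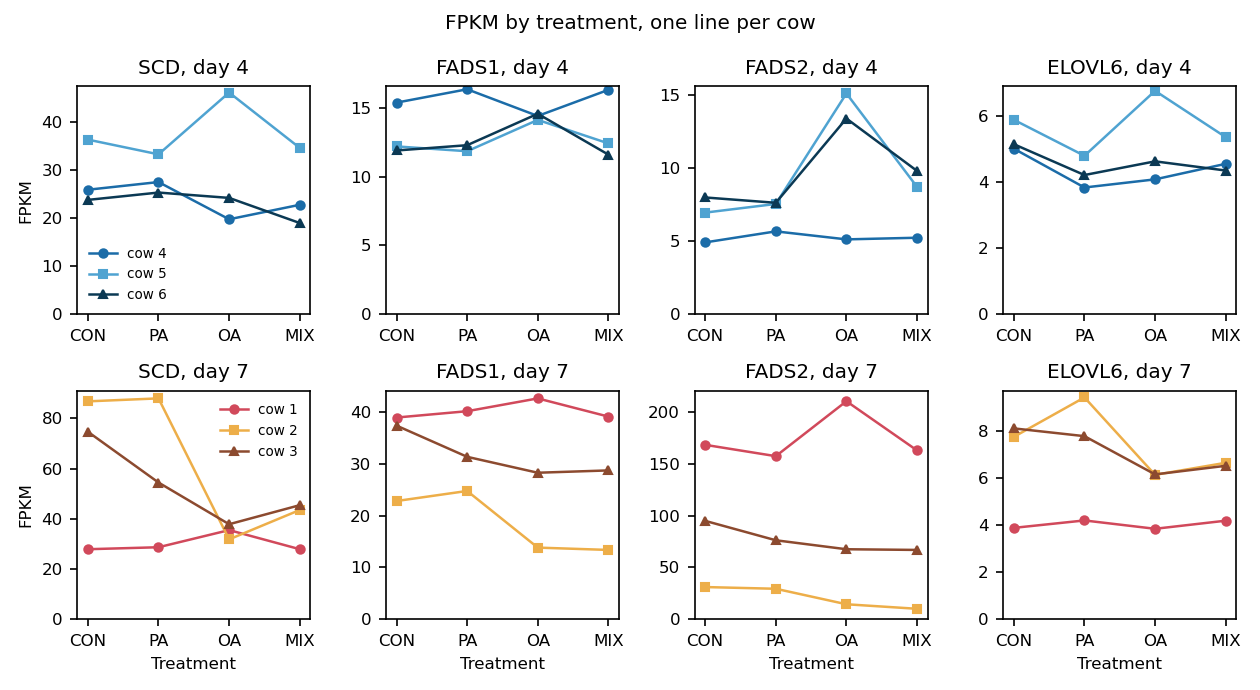
FPKM of SCD, FADS1, FADS2 and ELOVL6 by treatment, with 1 line per cow, at day 4 (upper panels) and day 7 (lower panels). All axes start at 0 and differ between panels. FADS2 at day 4 peaks with OA in cows 5 and 6 (15.1 and 13.4 FPKM) and not in cow 4 (5.12 FPKM), and SCD at day 7 is low with OA in cows 2 and 3 and not in cow 1.

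Among the elongases at day 4, ELOVL6 was the member whose PA and CON groups did not overlap. ELOVL6, which lengthens the palmitic acid given to the PA cultures, read 5.01, 5.89 and 5.15 FPKM in CON, 3.84, 4.80 and 4.22 in PA, 4.09, 6.77 and 4.63 in OA, and 4.56, 5.36 and 4.35 in MIX for cows 4, 5 and 6. PA was lower than CON in every cow, by ratios of 0.765, 0.815 and 0.819, and all PA libraries lay below all CON libraries. This held for 1 of 10 members, against 1.25% of all 12841 genes kept, and the log2 difference of -0.33 ± 0.21 did not pass (adjusted p = 1.0 by edgeR, also with the block). In the other 11 comparisons within a day, 0 of 10 members had groups that did not overlap. Of all genes, 1.19% (OA) and 0.981% (MIX) had none against CON at day 4 and 1.25%, 0.935% and 0.927% for OA against PA, MIX against PA and MIX against OA. At day 7 the shares in the same order, with PA against CON first, were 1.76%, 2.55%, 1.66%, 2.73%, 1.68% and 2.49%. Counts of ELOVL6 at day 4 were 195 to 294 reads.

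ELOVL4 was lower with OA than in CON in 3 of 3 cows at day 4. It read 11.0, 7.48 and 4.15 FPKM in CON, 9.01, 5.36 and 6.07 in PA, 8.20, 5.48 and 3.74 in OA, and 11.1, 5.27 and 4.81 in MIX. The OA to CON ratios were 0.749, 0.733 and 0.900, the groups overlapped, and the log2 difference was -0.38 ± 0.45 (-0.37 ± 0.15 with the block, adjusted p = 0.866). ELOVL1 was higher with OA than in CON in 3 of 3 cows by ratios of 1.08, 1.10 and 1.13, with a log2 difference of 0.14 ± 0.44 (0.13 ± 0.07 with the block). ELOVL5 and ELOVL7 had OA to CON ratios of 1.01 to 1.06 and 0.921 to 1.03.

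Across the 10 genes at day 4, 7 had a positive log2 difference in the edgeR fit for OA against CON, with a median of 0.09 against 0.00 over all genes tested, and 4 had one for PA against CON, with a median of -0.01 against -0.01. In the block fit, 3 of 10 had an unadjusted p under 0.05 for OA against CON (FADS2, FADS3 and ELOVL4), where 5.2% of all genes did, and 1 of 10 for PA against CON (ELOVL6), where 3.16% did. For OA against PA 3 of 10 did (FADS2, FADS3 and ELOVL1), where 6.94% of all genes did, and for MIX against OA 1 of 10 did (FADS2), where 2.97% did. For MIX against CON and MIX against PA 0 of 10 did, where 3.48% and 3.26% did. The summed adipocyte markers were 66.7 to 153 FPKM in CON and 71.6 to 167 in OA, and the summed smooth muscle and myofibroblast markers 323 to 2344 and 423 to 2690 FPKM. Their part in these differences was not tested.

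At day 7 the member with the largest OA difference was SCD, and 2 of 3 cows carried it. In cows 1, 2 and 3 SCD read 27.9, 86.8 and 74.7 FPKM in CON, 28.6, 88.0 and 54.5 in PA, 35.5, 31.8 and 37.8 in OA, and 27.9, 43.5 and 45.4 in MIX. In cow 1, where CON was low, OA was 1.27 times CON and MIX equalled it. In cows 2 and 3, where CON was high, OA was 0.366 and 0.506 times CON and MIX 0.501 and 0.608 times. The OA libraries therefore spanned a narrow range, 31.8 to 37.8 FPKM, inside the CON range of 27.9 to 86.8. The log2 difference between OA and CON was -0.68 ± 0.46 (adjusted p = 1.0 by limma) and -0.68 ± 0.29 with the block (adjusted p = 0.521), and that between MIX and CON was -0.56 ± 0.46.

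The SCD difference at day 7 moved with cow 1 and cow 2. Without cow 1, limma gave -1.19 ± 0.24 for OA against CON (adjusted p = 1.0, and 0.704 with the block). In edgeR on recovered reads with the block, leaving out cow 1 gave -1.22 ± 0.16 (adjusted p = 0.0420, where 0.0516% of genes were called), a call that rests on cows 2 and 3 alone. Without cow 2, limma gave -0.31 ± 0.53 and without cow 3 -0.54 ± 0.69. With all 3 cows, edgeR on recovered reads with the block gave -0.67 ± 0.24 (adjusted p = 0.409). The summed adipocyte markers of day 7 were 61.2 to 109 FPKM in CON, 67.2 to 124 in OA and 56.3 to 101 in MIX. RBP4, at 69.7 FPKM on average, held most of these sums. The part of the markers in the result was not tested.

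FADS2 and FADS1 showed the same order of cows at day 7 under every treatment, CON included. FADS2 in cows 1, 2 and 3 read 168, 30.9 and 94.8 FPKM in CON, 157, 29.3 and 76.1 in PA, 210, 14.3 and 67.4 in OA, and 163, 9.94 and 66.8 in MIX. OA was 1.25 times CON in cow 1, 0.463 times in cow 2 and 0.711 times in cow 3, and MIX was below CON in 3 of 3 cows, at ratios of 0.968, 0.321 and 0.704. The MIX log2 difference of -0.70 had an SE of 1.18 without the block and 0.29 with it (adjusted p = 1.0 by limma in both). By edgeR on recovered reads without the block it was -0.29 ± 1.09, and without cow 2 it was -0.27 ± 0.72 by limma.

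FADS1 read 39.0, 22.8 and 37.4 FPKM in CON, 40.2, 24.8 and 31.4 in PA, 42.6, 13.8 and 28.3 in OA, and 39.1, 13.4 and 28.7 in MIX for cows 1, 2 and 3. OA was 1.09, 0.605 and 0.756 times CON in these cows, and the log2 differences were -0.32 ± 0.45 for OA and -0.36 ± 0.45 for MIX. As with FADS2, cow 1 was highest and cow 2 lowest under every treatment, CON included, and the groups overlapped. FADS3, next to them on the chromosome, stayed within 164 to 220 FPKM, with OA to CON ratios of 1.11, 0.987 and 1.01 and a log2 difference of 0.05 ± 0.13. SCD5 ranged from 5.54 to 9.60 FPKM and differed by 0.03 ± 0.21.

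Among the elongases at day 7, ELOVL6 had the largest log2 difference between OA and PA. In cows 1, 2 and 3 it read 3.88, 7.75 and 8.11 FPKM in CON, 4.20, 9.43 and 7.78 in PA, 3.84, 6.13 and 6.15 in OA, and 4.18, 6.65 and 6.52 in MIX. OA was below PA in 3 of 3 cows, at ratios of 0.915, 0.651 and 0.791, and below CON in 3 of 3 at 0.990, 0.792 and 0.759. The groups overlapped because cow 1 was lower than the other 2 cows under every treatment. The OA to PA log2 difference was -0.32 ± 0.32 by limma and -0.32 ± 0.10 with the block (adjusted p = 0.322).

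ELOVL5 read 57.2, 66.4 and 50.6 FPKM in CON, 58.8, 71.7 and 51.8 in PA, 58.4, 54.6 and 47.4 in OA, and 54.2, 62.9 and 48.3 in MIX. PA was above CON in 3 of 3 cows by ratios of 1.02 to 1.08, and OA was below PA in 3 of 3 at 0.994, 0.761 and 0.916, with a log2 difference of -0.17 ± 0.16. MIX was below CON in 3 of 3 cows, at ratios of 0.947, 0.947 and 0.953 (-0.07 ± 0.16). ELOVL7 with MIX was above CON in 3 of 3 cows by ratios of 1.01 to 1.09. ELOVL1 and ELOVL4 differed from CON by at most 0.11 in log2 under any treatment.

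Across the 10 genes at day 7, 2 had a positive log2 difference in the limma fit for OA against CON (FADS3 and SCD5), with a median of -0.10 against 0.01 over all genes. The same 2 of 10 count held for MIX (FADS3 and ELOVL7), with a median of -0.09 against 0.00, and 5 of 10 had a positive difference for PA. In the block fit, 2 of 10 had an unadjusted p under 0.05 for OA against CON (SCD and ELOVL6), where 9.27% of all genes did, and 2 of 10 for OA against PA (ELOVL5 and ELOVL6), where 11.5% did. For MIX against CON it was 1 of 10 (FADS2) against 3.41%, and for MIX against PA 1 of 10 (ELOVL6) against 3.92%. For PA against CON and MIX against OA it was 0 of 10, against 4.28% and 10.4%. The comparisons with CON share their CON libraries, and those with OA share their OA libraries.

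**Figure D3:**
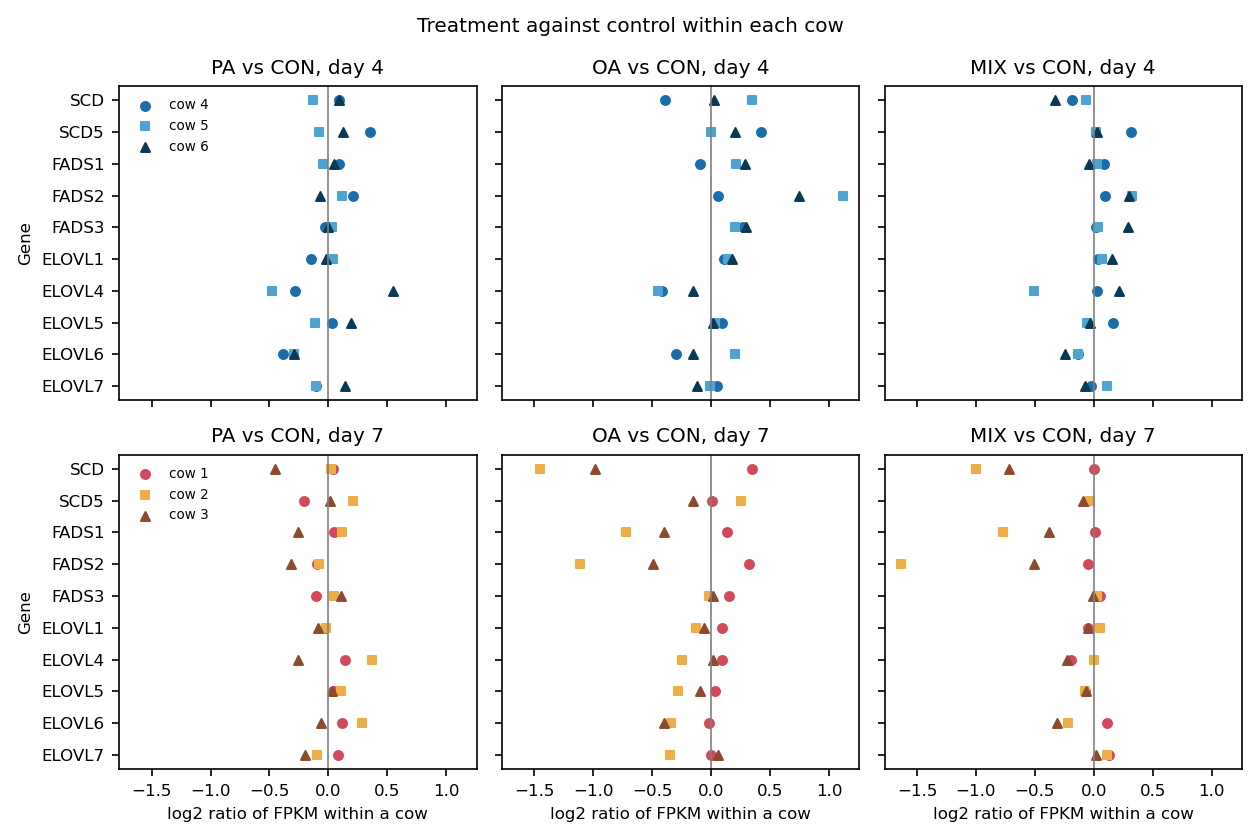
Log2 ratio of FPKM between each treatment and CON within each cow, for the 10 genes, at day 4 (upper panels) and day 7 (lower panels). Each point is 1 cow, and the vertical line marks no difference. With OA at day 7, SCD, FADS1 and FADS2 lie left of the line in cows 2 and 3 (SCD at -1.45 and -0.98) and right of it in cow 1 (SCD at 0.35), and FADS2 with OA at day 4 lies to the right in cows 5 and 6.

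The MIX cultures were also set beside the single fatty acids. Against OA at day 4, FADS2 was lower with MIX in cows 5 and 6, at ratios of 0.577 and 0.732, and level in cow 4 at 1.02 (log2 difference -0.50 ± 0.38). FADS3 was lower with MIX than with OA in 3 of 3 cows, at ratios of 0.839, 0.893 and 0.996 (-0.11 ± 0.38). Against PA at day 7, SCD was lower with MIX in 3 of 3 cows, at ratios of 0.973, 0.494 and 0.834 (-0.43 ± 0.46), and so was FADS1, at 0.974, 0.540 and 0.916 (-0.33 ± 0.45). Against OA at day 7, ELOVL6 was higher with MIX in 3 of 3 cows by ratios of 1.06 to 1.09 (0.09 ± 0.32). None of these passed (adjusted p = 1.0 by edgeR at day 4 and by limma at day 7). The SEs are from the fits without the block and so include the spread between cows. With the block none passed either. Of these differences, FADS2 against OA at day 4 alone then had an unadjusted p under 0.05, by edgeR. They are a selection. ELOVL6 with MIX was below PA at day 7, at ratios of 0.997, 0.705 and 0.838, and also had an unadjusted p under 0.05 by limma with the block. At day 7 MIX was also below OA in 3 of 3 cows for FADS2 (0.774, 0.695 and 0.990). Against PA at that day it was below in 3 of 3 for ELOVL5 (0.921, 0.877 and 0.933) and above in 3 of 3 for ELOVL7 (1.03, 1.16 and 1.16).

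Whether a response differed between the days was tested as an interaction in limma over all 24 libraries. In each of 4 such tests 0 of 10 members passed, and 0% of 12132 genes did, with and without cow as a block. Without the block no member had an unadjusted p under 0.05 (0.19%, 0.173% and 0.181% of all genes did for PA, OA and MIX against CON and 0.239% for OA against PA). With the block, 4 of 10 did for OA against CON (FADS2, FADS1, FADS3 and ELOVL1) where 5.49% of all genes did. For OA against PA 3 of 10 did (ELOVL6, FADS3 and ELOVL1) where 6.91% did, and for PA and for MIX against CON 1 of 10 each did, where 4.64% and 4.44% did. The OA response of FADS2 was lower at day 7 than at day 4 by a log2 difference of -0.99 ± 1.28 (± 0.36 with the block, adjusted p = 0.880). That of FADS1 was lower by -0.44 ± 0.50 and that of SCD by -0.68 ± 0.58. The days differ in cows and in treatment schedule, and these cannot be told apart from time in culture.

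Ratios between related members give a measure that does not depend on the scaling of a library. The FADS2 to FADS1 ratio of FPKM was 0.320 to 1.07 at day 4 and 0.744 to 4.93 at day 7. In day 7 CON it was 4.32 in cow 1, 1.36 in cow 2 and 2.54 in cow 3, and with OA 4.93, 1.04 and 2.38. Under OA at day 4 it was 0.356 in cow 4, 1.07 in cow 5 and 0.919 in cow 6, against 0.320, 0.570 and 0.672 in CON, so it was higher in 3 of 3 cows. With MIX it was also higher than CON in 3 of 3, at 0.321, 0.702 and 0.846. With PA, at 0.347, 0.637 and 0.621, it was higher in cows 4 and 5 and lower in cow 6. The SCD to SCD5 ratio was 3.02 to 7.83 at day 4 and 3.64 to 11.9 at day 7. At day 7 it was 3.64 with OA against 11.9 in CON in cow 2, 4.41 against 7.84 in cow 3 and 5.50 against 4.34 in cow 1. MIX and PA likewise lay below CON in cows 2 and 3 and above it in cow 1. In cows 2, 3 and 1 MIX was at 6.07, 5.08 and 4.53, and PA at 10.4, 5.67 and 5.17.

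The members were then compared for how they varied within a cow. For each gene the deviation of log2(FPKM + 1) from its cow's mean was taken over the 24 libraries, and genes were compared by cosine, where 1 is the same pattern. SCD and FADS1 had a cosine of 0.91, FADS1 and FADS2 0.89, and SCD and FADS2 0.75. At day 4 alone these were 0.68, 0.79 and 0.43, and at day 7 alone 0.95, 0.96 and 0.86. Cow 2, with the widest changes, weighed on them: over the other 20 libraries they were 0.84, 0.79 and 0.56. ELOVL6 and ELOVL5 had cosines of 0.72 and 0.70 with SCD, which were 0.47 and 0.30 at day 4 alone and 0.59 and 0.41 without cow 2. At day 4 FADS2 was closer to FADS3 (0.65) and ELOVL1 (0.58) than to SCD. SCD5, in contrast, had a cosine of 0.02 with SCD (-0.07 at day 4 and 0.07 at day 7). FADS3 had one with SCD that rounds to 0, but with opposite signs at the 2 days (-0.32 at day 4 and 0.25 at day 7). FADS3 was most like ELOVL1, at 0.76 (0.90 at day 4 and 0.37 at day 7). Libraries of 1 cow and 1 treatment share everything but the gene, so these are descriptions, and the overlap of FADS1 with FADS2 can add to their likeness.

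**Figure D4:**
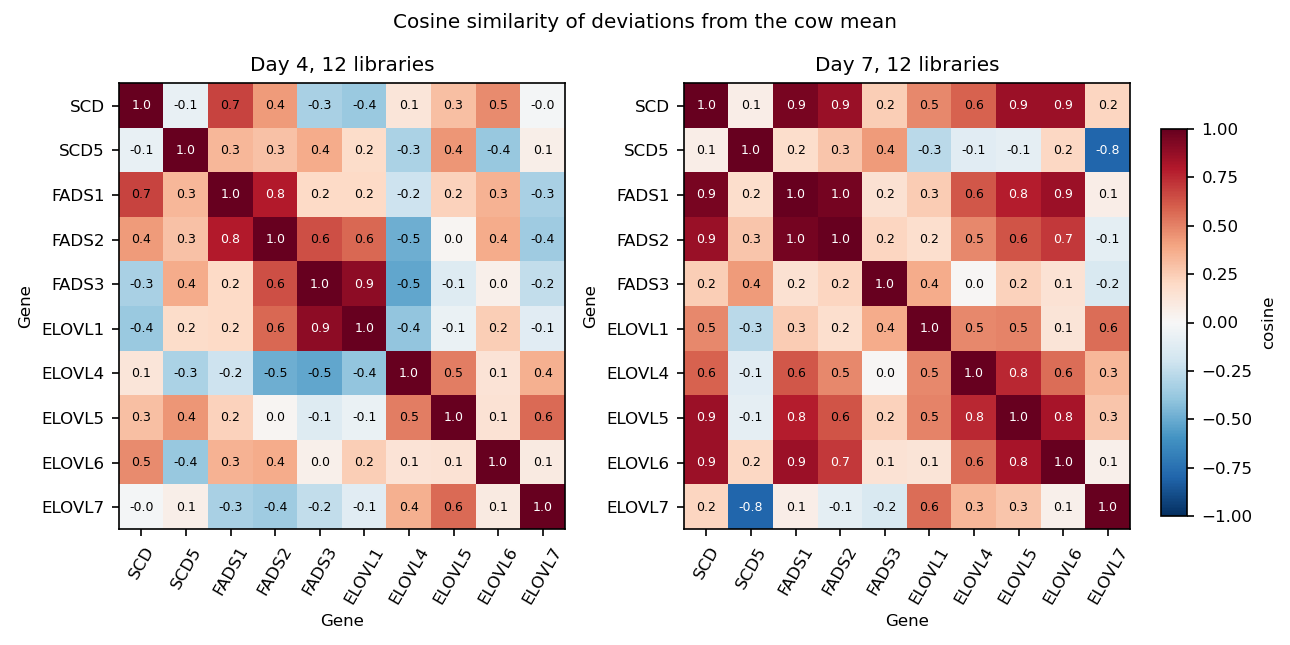
Cosine between the members' deviations from the cow mean, over 12 libraries at day 4 (left) and 12 at day 7 (right). Red marks like and blue marks opposite patterns. The pairs of SCD, FADS1 and FADS2 have cosines of 0.43 to 0.79 at day 4 and 0.86 to 0.96 at day 7, those of SCD with ELOVL5 and ELOVL6 are 0.30 and 0.47 at day 4 and 0.86 for both at day 7, and FADS3 with ELOVL1 is at 0.90 at day 4.

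Over 9569 genes with at least 2 FPKM on average at each day, the 5 most like SCD were DHCR7 (0.94, the final reductase of cholesterol synthesis), ACSL3 (0.94, a long-chain acyl-CoA synthetase), FABP3 (0.93, a cytosolic fatty acid binding protein), FADS1 (0.91) and LSS (0.90, lanosterol synthase). For FADS1 they were FABP3 (0.92), DHCR7 (0.91), SCD (0.91), LSS (0.91) and FADS2 (0.89). For FADS2 they were FADS1 (0.89), FASN (0.87, fatty acid synthase), LSS (0.85), SLC25A1 (0.82, the mitochondrial citrate carrier) and FABP3 (0.81). Among these 9569 genes, SCD5 ranked 4013th and FADS3 4395th in likeness to SCD. All these lists and ranks are over the 24 libraries together, and they were not taken by day or without cow 2.

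The enzymes and regulators that work with the members were examined as 6 lists of 52 genes, all found, of which 48 were tested at day 4 and 45 at day 7. In all 12 comparisons within a day, 0 of them passed in either direction by edgeR or limma, with or without the block. For OA against CON at day 4, 32 of 48 had a positive log2 difference, with a median of 0.05 against 0.00 over all genes. At day 7, 17 of 45 did, with a median of -0.04 against 0.01. For PA against CON it was 35 of 48 at day 4 and 14 of 45 at day 7, and for MIX against CON 29 of 48 and 17 of 45. The list medians were 0.03 and -0.03 for PA and 0.02 and -0.04 for MIX. Counts for all 3 treatments were thus mostly positive at day 4 and mostly negative at day 7. The tests and the cows differ between the days. These counts were not set against the share of all genes with a positive difference. With the block, the unadjusted p at day 4 was under 0.05 for 2, 3 and 1 of 48 for PA, OA and MIX against CON and for 7, 1 and 3 for OA against PA, MIX against PA and MIX against OA, where 3.16%, 5.2%, 3.48%, 6.94%, 3.26% and 2.97% of all genes had one. At day 7, in the same order, it was for 1, 7, 6, 4, 1 and 2 of 45, where 4.28%, 9.27%, 3.41%, 11.5%, 3.92% and 10.4% of all genes had one.

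Of the 2 genes with the highest level in each list, the elongation partners TECR and HACD2, which complete the elongation cycle after the ELOVL step, averaged 45.8 and 33.6 FPKM at day 4 and 42.9 and 24.9 at day 7. CYB5R3 and CYB5R1, reductases of the cytochrome b5 system that supplies desaturases with electrons, averaged 87.7 and 27.3, then 112 and 31.4 FPKM. DEGS1, the dihydroceramide desaturase, averaged 116 and 104 FPKM, above every member at day 4, and FADS6, a desaturase family member, 1.46 and 1.33. In the list of saturated fatty acid synthesis, SLC25A1 averaged 77.7 and 124 FPKM and FASN 23.4 and 35.3. ACSL4, which activates arachidonic acid, averaged 71.5 and 57.8 FPKM, and SCP2, the thiolase and sterol carrier of peroxisomes, 58.6 and 44.0. ELOVL2 and ELOVL3, the remaining elongases, averaged 0.049 and 1.48 FPKM at day 4 and 0.018 and 0.017 at day 7.

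SREBF1, the transcription factor of lipogenic genes and a textbook regulator of SCD and FADS2, averaged 52.0 FPKM at day 4 and 41.0 at day 7, and MID1IP1, a partner of acetyl-CoA carboxylase, 29.6 and 46.6. At day 7 the SREBF1 log2 difference was -0.41 ± 0.17 for OA against CON and -0.33 ± 0.17 for MIX against CON (adjusted p = 1.0 for both by limma). With the block the SE was 0.09 for both, with adjusted p-values of 0.424 and 1.0. At day 4 SREBF1 differed by -0.07 ± 0.29 for OA. FASN at day 7 differed by -0.36 ± 0.37 for OA and -0.37 ± 0.37 for MIX, and SLC25A1 by -0.15 ± 0.20 and -0.18 ± 0.20. TECR differed by 0.17 ± 0.41 for OA at day 4 and -0.15 ± 0.16 at day 7, CYB5R3 by 0.16 ± 0.32 and -0.02 ± 0.31, and DEGS1 by 0.11 ± 0.27 and 0.04 ± 0.23. None of these passed the test.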

How the data were processed

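Per the labels, RNA was extracted with a bead-based kit and converted to cDNA with random hexamers, and both a directional and a non-directional protocol are described without saying which was used. The submitters' processing notes name featureCounts 1.5.0-p3, StringTie 1.3.3b and FastQC 0.11, without saying how each was run. No aligner, build or strand setting is given in the sources used here. The deposited day 4 table holds raw counts per gene and library, FPKM by the authors, and the authors' log2 fold changes with p-values for 6 comparisons. The deposited day 7 table holds FPKM only, per the file headers. Reads of day 7 were recovered from the authors' FPKM, gene length and the value of 1 read in a library, and 100% came out whole to within 0.01. The same steps at day 4 returned the deposited count for 100% of values.

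The members and lists were chosen with earlier results of these data known. Day 4 counts were filtered with filterByExpr, given TMM scaling and compared over the 4 groups by the quasi-likelihood test of edgeR (13580 genes). Day 7 FPKM with at least 1 FPKM in 3 libraries (12615 genes) were tested with limma-trend on log2(FPKM + 1), a scale that understates changes of low genes, and the difference between days with limma on 12132 genes. P-values were two-sided and adjusted by Benjamini and Hochberg over all genes, with a threshold of 0.05, and a log2 difference subtracts the second-named group from the first-named. The fits had no block. Cow as a block was the alternative, since a number names the same cow in the 4 groups of a day. Checked on deviations from group means, same-cow libraries correlated at r = 0.708 to 0.916 at day 4 and 0.772 to 0.864 at day 7 across genes, against at most 0.139 and -0.310 for other pairs. Other alternatives were DESeq2, limma at day 4, no filter, a pseudocount of 0.1, recovered reads, and leaving out cows or libraries. edgeR, limma and DESeq2 were tested on simulated data with the cows' differences kept. There, fits with the block recovered nearly all changed genes and the edgeR and limma fits without it few or none, so a count of 0 without the block says little. Only genes well covered in every library were changed, by fixed fold changes equal in all cows. How well the block fits find smaller changes, or changes that differ between cows, was not tested. DESeq2 without independent filtering, DESeq2 and left-out cows on recovered reads, single left-out libraries with the block, and left-out cows in the tests between days were chosen after seeing the data. The 3-count floor was at most 0.222 CPM per library at day 4 and 0.212 at day 7, for counting error only. All 10 members were named, together with the 2 genes of highest mean FPKM per list and the 5 nearest by cosine to SCD, FADS1 and FADS2. ELOVL2 and ELOVL3 were named after their values were seen. CEBPA was not analysed here. Figures were drawn with matplotlib 3.10.9 in Python 3.11.15, and tests were run with limma 3.58.1, DESeq2 1.42.0 and edgeR 4.0.16 under R 4.3.3.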

Additional observations from a re-analysis of the deposited data

Results flagged for a closer look

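In 4 of the 60 combinations of member and comparison examined, all 3 cows of day 4 differed one way and all 3 of day 7 the other way. The first 3 below were tested as an interaction in limma and did not pass. The last was not tested. The share of all genes that reverse in this way was not computed, and the comparisons share libraries. Whether 4 of 60 is more than random spread would give was therefore not tested. Some of the ratios below lie close to equality, such as 0.997 for ELOVL6 and 0.968 for FADS2, both at day 7.

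FADS2 with MIX was above CON in 3 of 3 cows at day 4, by ratios of 1.07, 1.25 and 1.23, and below it in 3 of 3 at day 7, at 0.968, 0.321 and 0.704. The day 7 minus day 4 difference was -0.9071 in log2 (SE 1.28, and 0.36 with cow as a block, adjusted p = 0.979 with the block).

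ELOVL6 with OA was above PA in 3 of 3 cows at day 4, by ratios of 1.06, 1.41 and 1.10, and below it in 3 of 3 at day 7, at 0.915, 0.651 and 0.791. The difference was -0.5162 (SE 0.38, and 0.14 with the block, adjusted p = 0.500 with the block).

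SCD5 with MIX was above CON in 3 of 3 cows at day 4, by ratios of 1.25, 1.01 and 1.02, and below it in 3 of 3 at day 7, at 0.959, 0.981 and 0.939. The difference was -0.1521 (SE 0.29, and 0.12 with the block, adjusted p = 0.979 with the block).

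ELOVL6 with MIX was above PA in 3 of 3 cows at day 4, by ratios of 1.19, 1.12 and 1.03, and below it in 3 of 3 at day 7, at 0.997, 0.705 and 0.838. The mean within-cow log2 ratio was lower at day 7 by a difference of -0.4056. This difference was not tested, and it shares its PA libraries with the OA against PA comparison of the same gene.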

How the results depend on the processing

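The count of members past the threshold was 0 in all 16 comparisons of the fits reported, and it was also 0 with cow as a block in edgeR and limma, so the pairing changed no member's call there. It was 1, in place of 0, for OA against CON at day 4 by DESeq2 with the block and no independent filtering. With independent filtering on, DESeq2 printed no adjusted p for 9 members in OA against CON and 5 in OA against PA at day 4, and for 4 in OA against PA at day 7 on recovered reads. Leaving out cows or libraries moved the count between 0 and 1 for OA against CON and OA against PA at day 4 (FADS2) and for OA against CON at day 7 (SCD), and left it at 0 in the other comparisons. In all, 8 of 282 comparisons with something left out called a member, and 1 of 118 with all libraries. Sign changes were counted for PA, OA and MIX against CON and for OA against PA, and not for MIX against PA or OA. Of 600 single log2 differences under alternatives with all libraries, 19 changed sign, none of them called, and 71 of 480 with a cow left out did. The largest reported value among them was 0.25 in size. With 3 cows per group and cows this different, the fits without the block had SEs of 0.13 to 1.18 in log2 for members at day 7, which limits what they could call. Fits on 2 cows assume the spread of the cows left.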
